A study of Mus musculus with 15 samples.

Results

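Heat shock proteins were followed in whole mouse kidneys as 10 genes, taken by symbol from a table of 19602 genes, and all 10 were found there and passed the filter on low values. They were grouped by role: the stress-inducible cytosolic chaperones Hspa1a, Hspa1b, Dnajb1, Hsph1 and Hsp90aa1, the small heat shock proteins Hspb1 and Cryab, the constitutive cytosolic chaperone Hspa8, and the mitochondrial pair Hspd1 and Hspe1. The 15 libraries came from 4 groups of male and female mice, 6 to 8 weeks old: G3 folic acid (n = 4) and G3 vehicle (n = 4), of generation 3 Tert-/-, then WT folic acid (n = 3) and WT vehicle (n = 4), both Tert+/+. Tert encodes the catalytic part of telomerase, and generation 3 mice descend from successive generations bred without it. Folic acid at 125 mg/kg, a tubular toxin at such doses, or 200 µl of 0.3 M NaHCO3 as vehicle was injected once into the peritoneum, and perfused kidneys were taken at day 14. Neither the strain nor the deleted stretch of Tert is stated in the labels. Numbers such as WT vehicle 1 only name libraries. Nothing in the labels says that libraries came from separate animals, so p-values measure the spread between these libraries.

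Heat shock proteins bind unfolded or partly folded proteins and keep them from clumping. HSP70 chaperones fold clients with the help of J proteins, which deliver the client and start ATP hydrolysis, and of HSP110 proteins, which release the nucleotide. HSP90 finishes signalling proteins, small heat shock proteins hold clients without ATP, and HSP60 with its lid HSP10 folds proteins inside mitochondria. Stress genes of this family are switched on by heat shock factor 1, which binds inverted repeats of the letters GAA. In kidney, HSP70 and alphaB-crystallin (Cryab) are known to be abundant in the inner medulla, where cells live at high salt and urea.

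Promoter sequence is shown for 4 genes because 3 of them hold the heat shock factor motif in a different arrangement and the fourth stands for a near-identical gene pair. RefSeq windows (GRCm38.p6, from 250 bases before to 50 after each start) were matched for 7 of the 10 genes, in 10 windows, and not for Hspa8, Hsp90aa1 and Cryab. Capitals mark every match to GAANNTTC or TTCNNGAA, read on both strands, and neighbouring matches that share letters are merged. The sequences run 5′ to 3′ on the strand of the gene.
Hspa1a: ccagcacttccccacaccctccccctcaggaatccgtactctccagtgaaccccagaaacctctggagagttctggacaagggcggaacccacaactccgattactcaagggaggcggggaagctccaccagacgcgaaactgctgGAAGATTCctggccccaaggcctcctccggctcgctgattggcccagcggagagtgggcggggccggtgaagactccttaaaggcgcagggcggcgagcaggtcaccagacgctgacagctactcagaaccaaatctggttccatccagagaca
Hspe1: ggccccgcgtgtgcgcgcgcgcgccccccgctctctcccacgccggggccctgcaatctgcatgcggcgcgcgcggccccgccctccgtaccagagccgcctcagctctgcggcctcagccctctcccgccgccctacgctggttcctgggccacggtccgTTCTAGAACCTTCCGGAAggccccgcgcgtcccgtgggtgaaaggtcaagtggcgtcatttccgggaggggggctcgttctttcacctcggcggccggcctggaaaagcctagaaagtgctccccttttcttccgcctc
Hsph1: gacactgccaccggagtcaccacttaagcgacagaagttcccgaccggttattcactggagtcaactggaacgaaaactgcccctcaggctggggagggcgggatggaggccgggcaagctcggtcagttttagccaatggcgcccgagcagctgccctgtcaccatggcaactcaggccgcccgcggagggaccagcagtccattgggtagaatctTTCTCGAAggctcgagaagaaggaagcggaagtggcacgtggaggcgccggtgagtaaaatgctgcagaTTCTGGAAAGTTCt
Hspb1: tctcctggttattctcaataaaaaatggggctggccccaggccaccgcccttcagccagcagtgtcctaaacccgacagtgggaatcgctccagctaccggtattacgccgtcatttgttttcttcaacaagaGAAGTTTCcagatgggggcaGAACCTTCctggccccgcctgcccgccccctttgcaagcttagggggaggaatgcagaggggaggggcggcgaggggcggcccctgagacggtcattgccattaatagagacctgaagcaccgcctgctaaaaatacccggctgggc

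The Hspa1a window (chr17:34972107-34972406, minus strand) holds 1 such pair of repeats, starting 104 bases before the start. The Hspa1b window differs from it at 4 of 300 bases (98.67% identity) and has its pair at the same place. Hspe1 (chr1:55087898-55088197, plus strand) holds 3 overlapping pairs in 1 run. A pair extended by a further repeat at the same spacing is here called a triplet, and this run holds 2 overlapping triplets. A window of Hspd1 on the opposite strand overlaps the Hspe1 window and holds the same run, and the 2 genes overlap head to head by 112 bases. Hsph1 (chr5:149636287-149636586, minus strand) has a single pair before its start and a triplet after it, and Hspb1 (chr5:135887669-135887968, plus strand) has 2 separate pairs. A pair was found for 6 of the 7 genes and a triplet for 3, Hspd1, Hspe1 and Hsph1, while Dnajb1 had no match. Among 32851 promoter windows, 15.06% held a pair and 0.6027% a triplet. These matches describe letters, not binding.

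All 10 genes are protein-coding (GENCODE M21, GRCm38). Hspa1a (chromosome 17, 34969190 to 34972156) and Hspa1b (chromosome 17, 34956436 to 34959238) are genes of 1 exon with 9951 bases between them. Reads came from 3′ ends, and no 50-base stretch in the last 400 bases of the transcript was shared between Hspa1a and Hspa1b. Such stretches were shared with other annotated genes in 3 members. For Hspa8 (chromosome 9, 40800984 to 40810087) 76.6% of them occur in 11 other genes, 3 of which were in the table at no more than 30.7 normalised counts. For Hspe1 (chromosome 1, 55088132 to 55091307) the share was 59.8%, and the 1 such gene in the table, AC117239.2, had 53.6 to 159. Hspb1 (chromosome 5, 135887919 to 135889563) shared 41.6% with 1 gene outside the table. Reads of these 3 genes may be split with their copies, so their values are less certain.

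Depth was 5014684 to 6609307 gene-assigned reads a library (median 6091019), and 1 read was worth 0.895 to 1.13 normalised counts. The lowest member value, Hspa1b in WT vehicle 4, rested on 19 reads. All 7 proximal tubule and all 5 thick ascending limb markers were detected in every library, with summed levels of 17064 to 41464 and 15929 to 37388 normalised counts. Xist and Y-linked RNA were opposite to the labelled sex in 10 of 15 libraries, and 2 libraries, G3 folic acid 4 and WT vehicle 2, held both. Y-linked RNA (Ddx3y, Eif2s3y, Kdm5d and Uty added up, as a share of the highest library) was 0.0173 to 0.800 in G3 folic acid, 0.00113 to 0.00873 in G3 vehicle, 0.0110 to 0.0340 in WT folic acid and 0.327 to 1 in WT vehicle. WT folic acid 1 had 23.0% of its reads in Gm42418, a predicted gene, against 4.85 to 8.15% elsewhere. In these whole kidneys, fewer cells of a type and less RNA per cell cannot be told apart.

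**Figure D1:**
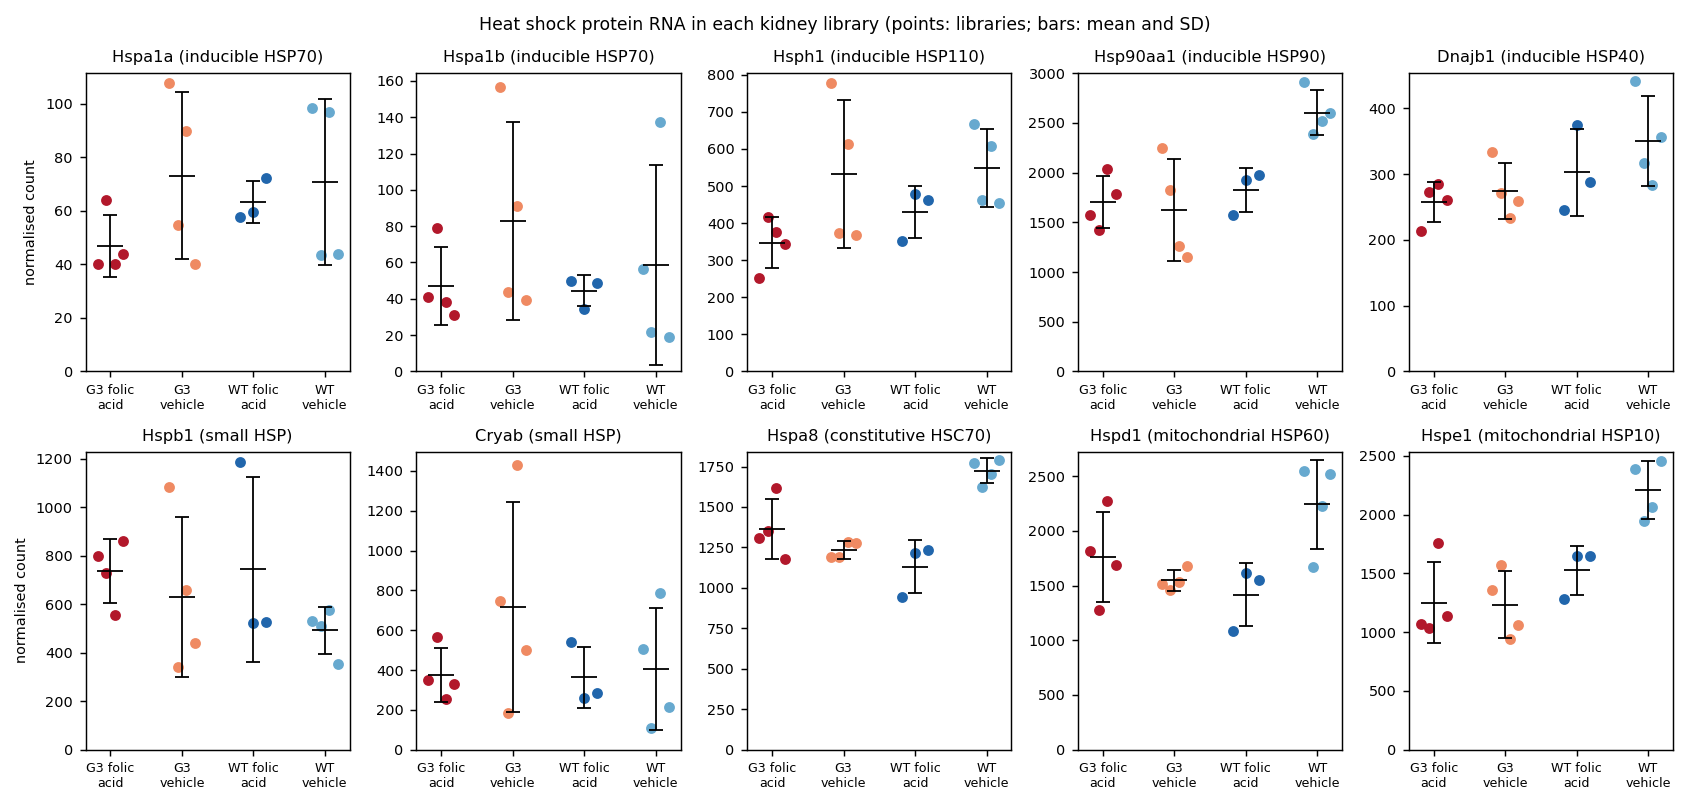
Normalised count (y axis, from 0) of each of the 10 genes in the 4 groups (x axis). Points are libraries and bars the mean with SD. Hspa8 in WT vehicle (1625 to 1792) lies above every other library, G3 folic acid 3 (1619) being almost level with the lowest. Hspa1a, Hspa1b, Hsph1 and Cryab spread widely within both vehicle groups.

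The inducible HSP70 genes did not separate the 4 groups. Hspa1a had 39.9, 63.9, 40.0 and 43.8 normalised counts in G3 folic acid kidneys and 108, 54.7, 89.8 and 40.1 in G3 vehicle kidneys. The WT libraries held 57.9, 59.5 and 72.4 after folic acid and 98.4, 43.6, 96.9 and 44.0 after vehicle. The highest libraries were G3 vehicle 1, WT vehicle 1, WT vehicle 3 and G3 vehicle 3, and each vehicle group also held a pair of low libraries, so all groups overlapped. Hspa1b had 40.8, 78.9, 38.0 and 31.3 normalised counts in G3 folic acid kidneys and 157, 44.0, 90.9 and 39.1 in G3 vehicle kidneys. The values were 49.9, 34.6 and 48.6 in WT folic acid kidneys and 56.5, 21.8, 137 and 18.98 in WT vehicle kidneys. Hspa1b encodes nearly the same protein as Hspa1a and was highest in G3 vehicle 1, WT vehicle 3 and G3 vehicle 3. WT vehicle 2 and 4 were the lowest of all 15 libraries, and the WT vehicle mean was 58.6 ± 55.1 (SD, n = 4).

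Dnajb1, the J protein partner of inducible HSP70, lay in a narrow range. Dnajb1 had 214, 272, 285 and 260.3 normalised counts in G3 folic acid kidneys and 334, 271, 234 and 259 in G3 vehicle kidneys. WT kidneys had 245, 374 and 289 of it after folic acid and 442, 318, 283 and 357 after vehicle. WT vehicle 1 was highest and G3 folic acid 1 lowest, and no 2 groups were apart. Hsph1, the HSP110 exchange factor, followed the same libraries as Hspa1a. Hsph1 had 252, 415, 377 and 344 normalised counts in G3 folic acid kidneys and 778, 373, 613 and 368 in G3 vehicle kidneys. The WT libraries held 351, 478 and 462 after folic acid and 667, 463, 607 and 456 after vehicle. Its 4 highest values were in G3 vehicle 1, WT vehicle 1, G3 vehicle 3 and WT vehicle 3.

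Hsp90aa1, the inducible cytosolic HSP90, behaved differently from these. Hsp90aa1 had 1577, 1427, 2033 and 1786 normalised counts in G3 folic acid kidneys and 2251, 1821, 1258 and 1149 in G3 vehicle kidneys. The values were 1572, 1928 and 1975 in WT folic acid kidneys and 2909.9, 2384, 2522 and 2603 in WT vehicle kidneys. All 4 WT vehicle kidneys lay above all libraries of the other 3 groups. Group means were 1706 ± 263 in G3 folic acid, 1619.6 ± 514 in G3 vehicle, 1825 ± 220.2 in WT folic acid and 2605 ± 223 in WT vehicle (SD), so the first 3 groups did not differ beyond their spread.

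Among the small heat shock proteins, Hspb1 (HSP25 in mouse) was widest in G3 vehicle and WT folic acid. Hspb1 had 801, 728, 554 and 862 normalised counts in G3 folic acid kidneys and 1084, 341, 658 and 440.0 in G3 vehicle kidneys. WT kidneys had 1186, 521 and 525 of it after folic acid and 529, 510.0, 575 and 354 after vehicle. WT folic acid 1 and G3 vehicle 1 stood highest, and every pair of groups overlapped. Cryab, alphaB-crystallin, had the largest range of the 10 genes, with its highest library 13.2 times its lowest. Cryab had 349, 566, 255 and 329 normalised counts in G3 folic acid kidneys and 748, 185, 1430.3 and 501 in G3 vehicle kidneys. The WT libraries held 540.0, 261 and 287 after folic acid and 504, 108, 787 and 214 after vehicle. G3 vehicle 3 was highest and WT vehicle 2 lowest, again with overlap between all groups.

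Hspa8, the HSC70 that all cells make without stress, was tight within vehicle groups. Hspa8 had 1305, 1350.0, 1619 and 1178 normalised counts in G3 folic acid kidneys and 1188, 1190.0, 1286 and 1279.8 in G3 vehicle kidneys. The values were 943, 1218 and 1232 in WT folic acid kidneys and 1774, 1625, 1702 and 1792 in WT vehicle kidneys. Every WT vehicle library exceeded every other library, though WT vehicle 2 (1625) and G3 folic acid 3 (1619) were almost equal. The means were 1363 ± 186 in G3 folic acid, 1236 ± 54.5 in G3 vehicle, 1131 ± 163 in WT folic acid and 1723 ± 76.5 in WT vehicle (SD), so WT vehicle was highest and the ranges of the other 3 groups overlapped.

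The means of both mitochondrial chaperonin genes were also highest in WT vehicle. Hspd1 had 1820.1, 1273, 2275 and 1687 normalised counts in G3 folic acid kidneys and 1516, 1459.6, 1533 and 1682 in G3 vehicle kidneys. WT kidneys had 1089, 1615 and 1549.9 of it after folic acid and 2547, 1674, 2224 and 2523 after vehicle. Hspd1, or HSP60, was high in WT vehicle 1, 3 and 4 and in G3 folic acid 3, and WT vehicle 2 lay among the other groups. Hspe1 had 1072, 1037, 1761 and 1134 normalised counts in G3 folic acid kidneys and 1357, 1569, 943 and 1060.4 in G3 vehicle kidneys. The WT libraries held 1285, 1646 and 1649 after folic acid and 2386, 1941, 2064 and 2454 after vehicle. For Hspe1, or HSP10, all 4 WT vehicle libraries were above all others. The means of Hspe1 were 1251 ± 342 in G3 folic acid, 1232 ± 284 in G3 vehicle, 1527 ± 209 in WT folic acid and 2211 ± 248 in WT vehicle (SD), and neighbours below WT vehicle overlapped.

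The first comparison asks what folic acid did by day 14 in mice with telomerase. Hspa8 fell to 0.652-fold of vehicle in WT kidneys (log2 -0.62, SE 0.12, adjusted p = 0.0153, limma with Benjamini-Hochberg adjustment over 14651 genes). It was the only 1 of 10 members called, against 5.06% of all genes tested (2.89% lower), so the count says nothing particular about the family. Hspd1 (log2 -0.66, SE 0.19, adjusted p = 0.0525), Hspe1 (log2 -0.54, SE 0.19, adjusted p = 0.111) and Hsp90aa1 (log2 -0.52, SE 0.20, adjusted p = 0.124) did not pass. All 4 of these genes had every WT folic acid library below every WT vehicle library, and 10.6% of all genes tested did so in this direction. The other 6 members ranged from log2 -0.34 (Hsph1) to 0.51 (Hspb1), with adjusted p of 0.383 or more. The median of the 10 was log2 -0.28, against 0.01 over all genes tested.

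The call on Hspa8 rested on few libraries. It was -0.49 (adjusted p = 0.0665) without WT folic acid 1, -0.60 (adjusted p = 0.0509) without WT vehicle 1 and -0.60 (adjusted p = 0.0554) without WT vehicle 4, on the log2 scale in limma. Titles were split into series of numbers at chosen cut-offs, and all WT folic acid libraries and WT vehicle 1 to 3 fell in 1 series. Within it the WT folic acid numbers lie apart from those of WT vehicle 1 to 3, and the term does not adjust for that break. With the title series as a term Hspa8 was at log2 -0.60 (limma, adjusted p = 0.0813). With the Y share as a term it was -0.46 (adjusted p = 0.981), and folic acid and Y-linked RNA cannot be told apart in these WT libraries. WT folic acid 1 also had 358 normalised counts of the injury gene Lcn2, against 11.5 and 12.4 in WT folic acid 2 and 3 and 1.90 to 21.5 in WT vehicle. Summed over the 8 injury markers, of which 3 were at 0 in some library, the level was 3653 to 6393 in WT folic acid and 1939.5 to 3126 in WT vehicle. Most of this sum was Spp1 and Clu. In WT folic acid 2 and 3 all injury markers except Spp1 and Clu lay within the range of WT vehicle. The part of injury in the Hspa8 difference was not tested. Over all 30 alternatives Hspa8 gave log2 -0.68 to -0.46 and adjusted p of 0.000243 to 0.981.

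In G3 kidneys folic acid left none of the 10 members past the threshold with limma, and 0.273% of all genes were called. At an unadjusted p under 0.05 there was 1, Hsph1 (log2 -0.57, SE 0.23, adjusted p = 0.265), and edgeR and DESeq2 called 0 members each. Hspa1b (log2 -0.66, SE 0.53, adjusted p = 0.643), Cryab (log2 -0.64, SE 0.57, adjusted p = 0.684) and Hspa1a (log2 -0.55, SE 0.32, adjusted p = 0.470) had negative values of similar size and larger errors. Hspa8 was at log2 0.13, SE 0.12, adjusted p = 0.678 and Hspe1 at log2 0.02, SE 0.18, adjusted p = 0.985. All 10 members had overlapping groups, and 7.75% of all genes tested did not overlap. On simulated data this comparison recovered 10% of genes changed 1.5-fold and 74% of those changed 2-fold. Most changes near 1.5-fold were thus missed there at this number of libraries. The changed genes were drawn at random from those with a mean of at least 20. These shares are averages over such genes and may differ for a single member, such as Hspa8 with its small error. Injury markers summed to 3925 to 8638 normalised counts in G3 folic acid and 2792 to 3565 in G3 vehicle, again mostly Spp1 and Clu.

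**Figure D2:**
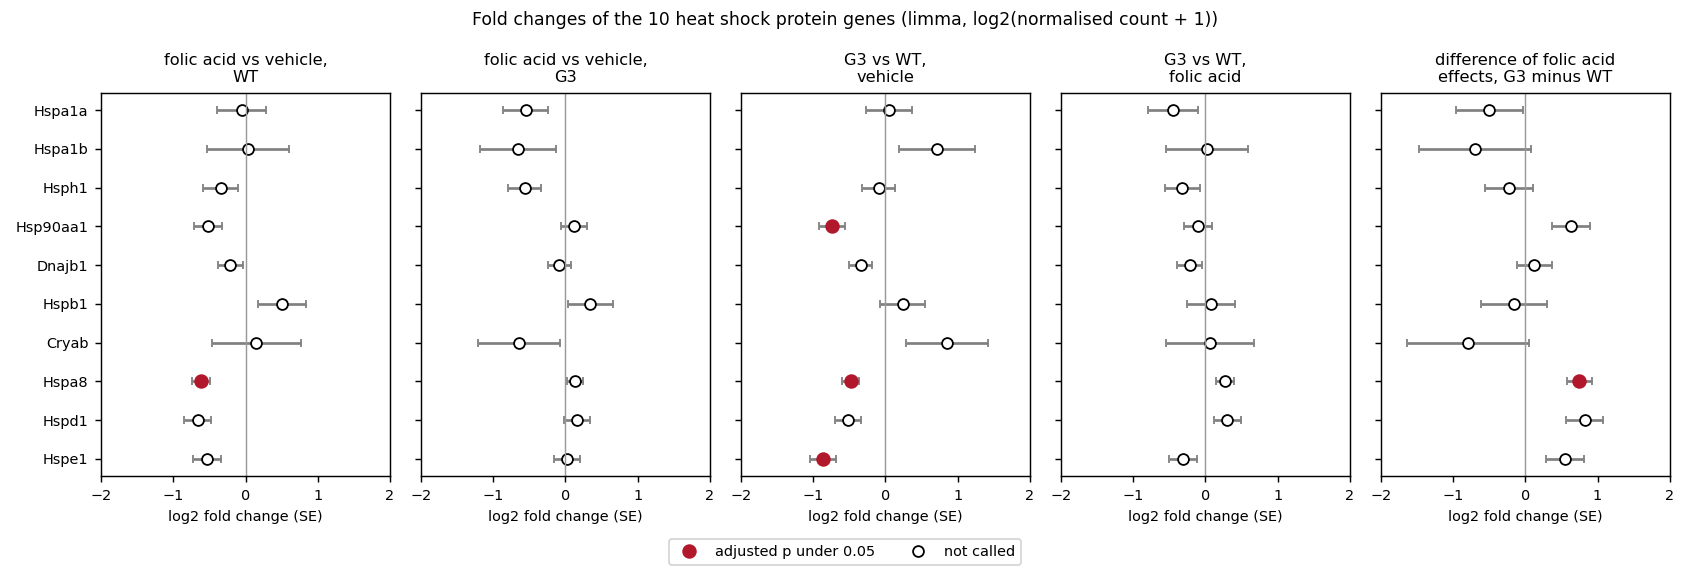
Log2 fold change with SE (x axis) of each gene (rows) in the 4 comparisons and in the difference of the folic acid effects. Filled points passed an adjusted p under 0.05: Hspa8 in WT after folic acid, Hsp90aa1, Hspa8 and Hspe1 in G3 against WT after vehicle, and Hspa8 in the difference.

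Without folic acid, 3 members were lower in G3 than in WT kidneys and none was higher. Hspe1 was at 0.549-fold of WT (log2 -0.86, SE 0.18, adjusted p = 0.0172), Hsp90aa1 at 0.601-fold (log2 -0.74, SE 0.18, adjusted p = 0.0354) and Hspa8 at 0.717-fold (log2 -0.48, SE 0.12, adjusted p = 0.0335, limma). All 4 G3 vehicle libraries lay below all 4 WT vehicle libraries for each of these genes. Of all genes tested 2.9% were called, 2.03% lower, and 6.72% had every G3 vehicle library below every WT vehicle library. Hspd1, the partner of Hspe1, had a similar value without passing (log2 -0.52, SE 0.18, adjusted p = 0.120). Dnajb1 was at log2 -0.34 (adjusted p = 0.280). Cryab (log2 0.86, SE 0.57, adjusted p = 0.463) and Hspa1b (log2 0.71, SE 0.53, adjusted p = 0.516) had positive values with wide errors. The median of the members was log2 -0.22 and that of all genes 0.02.

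Genotype and Y-linked RNA cannot be told apart in this comparison, since WT vehicle libraries had Y shares of 0.327 or more and G3 vehicle libraries of 0.00873 or less. Once the Y share was a term, the differences were log2 -0.50 for Hspe1 (adjusted p = 0.805), -0.49 for Hsp90aa1 (adjusted p = 0.816) and -0.32 for Hspa8 (adjusted p = 0.812). WT vehicle 2, with a share of 0.327, had 1941 normalised counts of Hspe1. Of the G3 libraries rich in Y-linked RNA, G3 folic acid 1 (share 0.800) had 1072 and G3 folic acid 3 (share 0.771) had 1761. For Hspa8 these libraries had 1305 and 1619, against 1625 in WT vehicle 2, and for Hsp90aa1 1577 and 2033, against 2384. For Hspd1, which was not called, they had 1820.1 and 2275, against 1674. Both were G3 libraries after folic acid, so they differ from WT vehicle 2 in genotype and in treatment. The labels give 3 of 4 G3 vehicle libraries as male and all 4 WT vehicle libraries as female. With the labelled sex in the fit the log2 differences were -0.92 for Hspe1 (adjusted p = 0.105), -0.79 for Hsp90aa1 (adjusted p = 0.154) and -0.52 for Hspa8 (adjusted p = 0.147), no smaller in size than without it and not called.

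**Figure D3:**
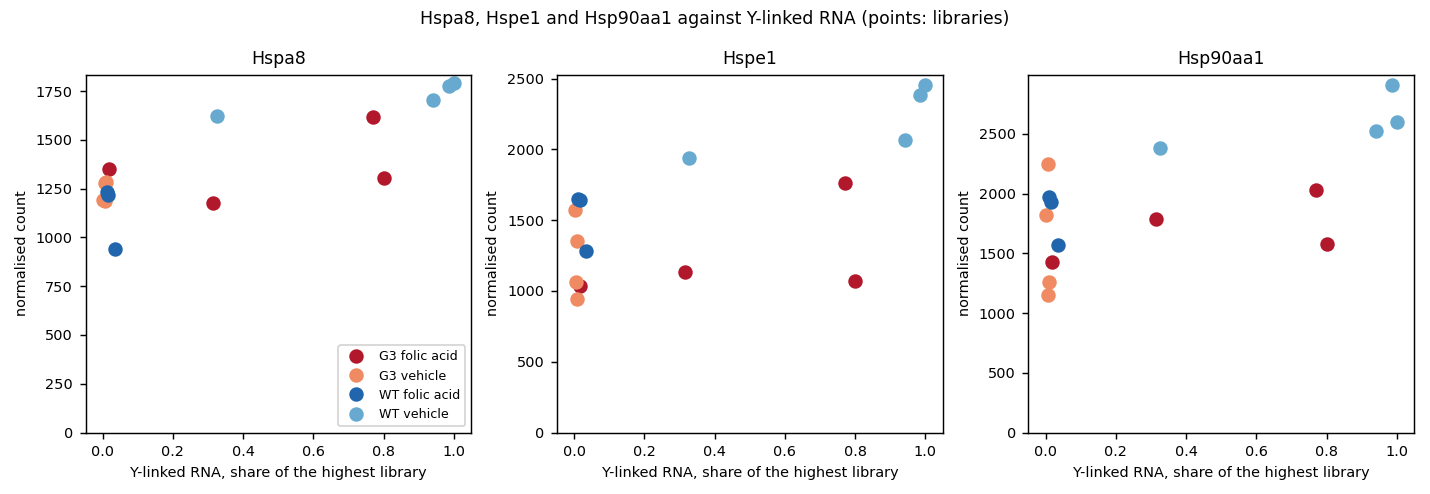
Normalised counts of Hspa8, Hspe1 and Hsp90aa1 (y axes, from 0) against Y-linked RNA as a share of the highest library (x axis); points are libraries, coloured by group. WT vehicle libraries lie highest at shares of 0.327 to 1, and G3 folic acid 1 and 3, at 0.800 and 0.771, lie below them. For Hspa8, G3 folic acid 3 (1619) is almost level with WT vehicle 2 (1625).

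Single libraries also decided these calls. Hspe1 was no longer called without G3 vehicle 3 (log2 -0.75), G3 vehicle 4 (-0.80), WT vehicle 1 (-0.83) or WT vehicle 4 (-0.81), with adjusted p of 0.0640 to 0.0714. Over all 30 alternatives Hspe1 gave log2 -1.21 to -0.50 and adjusted p of 0.00111 to 0.805. Hsp90aa1 was lost without the same 4 libraries or WT vehicle 3, at log2 -0.75 (without WT vehicle 3) to -0.59 (without G3 vehicle 4). G3 vehicle 3 and 4 had the lowest Hspe1 and Hsp90aa1 of their group, and the highest Hspa8. They were also the closest pair of all libraries (chi-square of 3.03, averaged over genes). Whether they are independent was not tested. Hspa8 was lost without any 1 vehicle library except WT vehicle 2, at log2 -0.50 (without G3 vehicle 3) to -0.46 (without WT vehicle 4). The chosen cut-offs gave 3 series of title numbers. The first held G3 vehicle 1 to 3, and the second all WT folic acid libraries and WT vehicle 1 to 3. The last held all G3 folic acid libraries, G3 vehicle 4 and WT vehicle 4. In the second, folic acid and vehicle titles lie further apart than neighbouring series do. With the title series as a term the log2 differences were -1.21 for Hspe1, -1.18 for Hsp90aa1 and -0.49 for Hspa8, none of them called. Within the last series, G3 vehicle 4 had 1060.4, 1149 and 1279.8 normalised counts of Hspe1, Hsp90aa1 and Hspa8, against 2454, 2603 and 1792 in WT vehicle 4. That is 1 library a group and no test. The 5 adipose markers, 3 of them at 0 in some library, summed to 215 to 2029 in G3 vehicle and 94.8 to 163 in WT vehicle. The highest sum was that of G3 vehicle 1. In G3 vehicle 2 and 4 most of the sum was Fabp4 (175 and 208). Adipoq, Plin1 and Ucp1 of G3 vehicle 4 lay within the range of WT vehicle. The part of adipose tissue was not tested.

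After folic acid, 0 of the 10 members differed between G3 and WT kidneys in limma, where 2.3% of all genes were called, and edgeR and DESeq2 also called 0. Hspa8 alone had an unadjusted p under 0.05 (log2 0.27, SE 0.12, adjusted p = 0.232), with a positive value. Hspe1 (log2 -0.31, SE 0.19, adjusted p = 0.385) and Hspd1 (log2 0.31, SE 0.19, adjusted p = 0.383) had opposite signs. The 10 values ran from log2 -0.44 (Hspa1a) to 0.31 (Hspd1) with a median of -0.04, against 0.01 over all genes. The groups overlapped for all 10 members, and did not for 17.3% of all genes tested.

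The difference of the folic acid effects, G3 minus WT, asks whether telomerase-deficient kidneys answered the toxin differently. It was positive for Hspa8 (log2 0.75, SE 0.17, adjusted p = 0.0215), the 1 member called, where 3.82% of all genes tested were called and 2.16% in this direction. Folic acid against vehicle was log2 0.13 in G3 and -0.62 in WT. Hspd1 had the same signs without passing (log2 0.82, SE 0.26, adjusted p = 0.0914), as did Hsp90aa1 (log2 0.63, SE 0.27, adjusted p = 0.233) and Hspe1 (log2 0.55, SE 0.27, adjusted p = 0.304). Both effects and the vehicle comparison share the vehicle libraries, and WT vehicle enters all 3 results on Hspa8. With the Y share as a term it was log2 0.50 (adjusted p = 0.9997). Without WT vehicle 1 it was 0.74 (adjusted p = 0.0514), and without WT vehicle 4 it was 0.73 (adjusted p = 0.0531).

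Across libraries, some members were high or low together. Hspa1a and Hspa1b had Pearson r of 0.82 and Spearman rho of 0.76 over the 15 libraries (permutation tests, adjusted over 45 pairs, p = 0.00191 and 0.0128). The permutations ran over all 15 libraries without regard to group, so differences between groups can also lower these p-values. Deviations from group means were not tested. Leaving out the 2 libraries farthest from the median gave r = 0.82, and deviations from the group means gave 0.91. Within the 2 title series of 6 libraries each, r was 0.84 and 0.64. These series mix groups, so differences between groups also enter every r within title series. The series given first holds only WT folic acid and WT vehicle libraries. Hspa1b and Cryab had r = 0.81 and rho = 0.84 (permutation, adjusted p = 0.00225 and 0.00495). The r of this pair was 0.81 after the same omission, 0.78 for deviations from group means, and 0.91 and 0.83 within title series. The second set held Hsp90aa1 and Hspe1, at r = 0.91 and rho = 0.94 (permutation p = 1e-05 each, the smallest that 100000 resamples can give, adjusted p = 0.00045). Their r was 0.90 without the 2 farthest libraries, 0.79 for deviations from group means, and 0.997 and 0.89 within title series. The chaperonin partners Hspd1 and Hspe1 had r = 0.67 and rho = 0.59 (permutation, adjusted p = 0.0321 and 0.0917). For them r was 0.64 after the omission, 0.59 for deviations from group means, and 0.97 and 0.88 within title series. Other pairs also passed. Hspa8 and Hspd1 had r = 0.87 (permutation, adjusted p = 0.00075), and 0.71 for deviations from group means. Hspa1a and Hsph1 had r = 0.85 (permutation, adjusted p = 0.000675), 0.85 for deviations, and 0.74 and 0.44 within title series. Dnajb1 passed with Hspe1 (r = 0.76, permutation, adjusted p = 0.0072) and Hsp90aa1 (r = 0.75, permutation, adjusted p = 0.00829). It did not pass with Hspa1a (r = 0.33, permutation, adjusted p = 0.378). By Pearson r only, Hspa8 and Hspe1 (r = 0.68) and Hspa1a and Cryab (r = 0.65) also passed. Hspa1a and Hspe1 showed no relation past the threshold (r = 0.12, rho = 0.12, permutation, adjusted p = 0.738 and 0.750).

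Libraries high in Hspa1a and Hsph1, and mostly in Hspa1b and Cryab, were also high in some genes of the inner medulla and of urothelium, the lining of the renal pelvis. Akr1b3, the aldose reductase that makes sorbitol in medullary cells, had 186 and 97.4 normalised counts in G3 vehicle 1 and 3 and 159 and 152 in WT vehicle 1 and 3. It had 7.94 to 32.2 in the other 11 libraries. Slc14a2, a urea transporter of the inner medulla, had 168, 136, 64.5 and 38.4 in those libraries and at most 25.0 elsewhere, and Upk3a, a urothelial plaque protein, had 164, 50.8, 73.5 and 74.8 and at most 32.9 elsewhere. The same 4 libraries lead for these 3 genes, for Hspa1a and for Hsph1, while G3 folic acid 2 was above WT vehicle 1 for Hspa1b (78.9 and 56.5) and Cryab (566 and 504). Akr1b3 and Slc14a2 are 2 of the 6 genes in the list of osmotic genes, and the other 4 did not share this order. The taurine transporter Slc6a6 was highest in G3 vehicle 4 (2433), Nfat5, the transcription factor of the salt response, in WT folic acid 1 (629.6), and for Slc5a3 and Slc6a12 some library outside the 4 exceeded G3 vehicle 3. The 6 osmotic genes, none at 0 in any library, summed to 3246 to 4569 in G3 folic acid, 4881 to 5696 in G3 vehicle, 4982 to 5466 in WT folic acid and 4051 to 6049 in WT vehicle. Of the urothelium markers, Upk1b and Upk2 were also highest in G3 vehicle 1 and 3 and WT vehicle 1 and 3. For Upk1a WT folic acid 1 (38.6) exceeded G3 vehicle 3 (34.6). For Krt5 WT folic acid 1 (11.3) exceeded G3 vehicle 3 (10.8) and WT vehicle 1 (7.92). Summed over the 5 urothelium markers, 3 of which were at 0 in some library, levels were 6.99 to 65.8 in G3 folic acid, 14.7 to 406 in G3 vehicle, 56.2 to 86.2 in WT folic acid and 25.0 to 205 in WT vehicle. The 7 collecting duct markers, none at 0 in any library, summed to 1272 to 2212, 1915 to 4117, 1968 to 2191 and 1308 to 3509 in the same order of groups. The mean log2 level of the urothelium markers was also used as a term, a setting chosen after the data were seen. The members called were then 2 (WT folic acid), 0 (G3 folic acid), 3 (G3 against WT, vehicle), 0 (G3 against WT, folic acid) and 1 (difference). Over all 14651 genes that setting called 943, 189, 478, 183 and 406 in the same order. Without the term these counts were 741, 40, 425, 337 and 560.

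**Figure D4:**
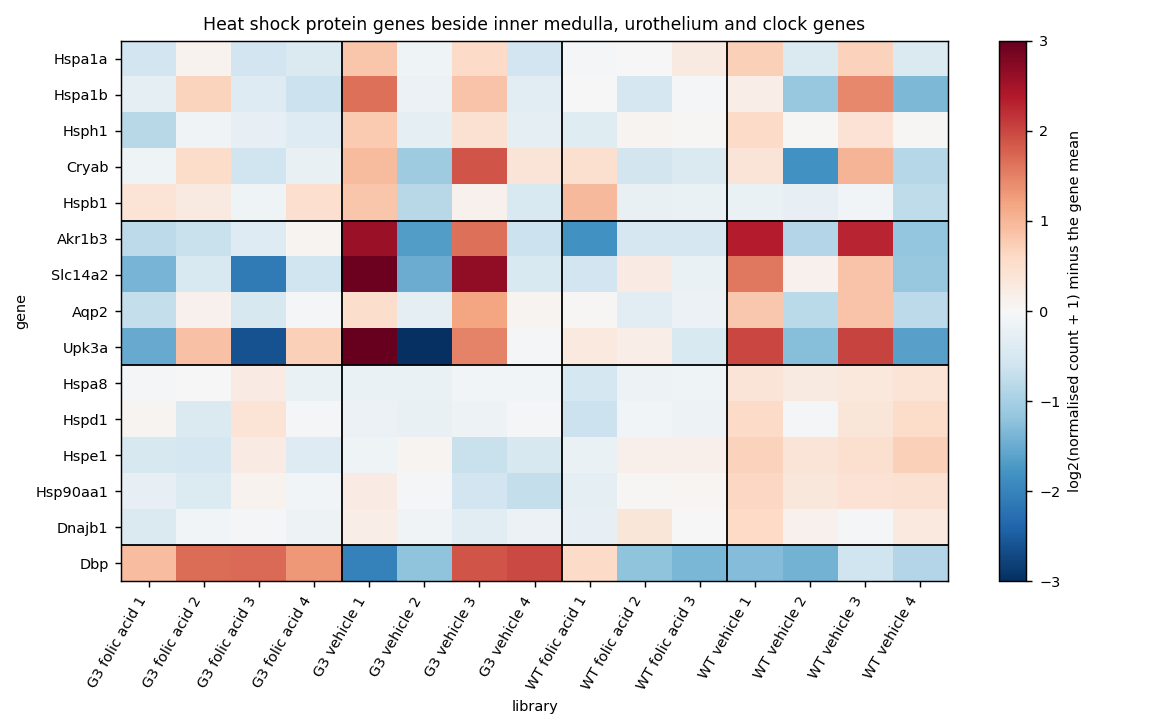
Log2(normalised count + 1) of each gene (rows) minus its mean over the 15 libraries (columns, by group), in colour from -3 to 3. Hspa1a and Hsph1 share their highest columns, G3 vehicle 1 and 3 and WT vehicle 1 and 3, with Akr1b3, Slc14a2 and Upk3a, while Hspa8, Hspe1 and Hsp90aa1 are highest in WT vehicle 1 to 4.

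Genes outside the family with the most similar pattern were named by Pearson r with the mean standardised log2 level of each set, over 15 libraries and 11752 genes with a mean of at least 20. For the inducible set they were Ranbp3l (r = 0.91), Zfr (0.89), Myh10 (0.89), Nrgn (0.88) and Gm16310 (0.88), and Akr1b3 had 0.79. For the small heat shock proteins they were S100a6 (0.98), Plet1 (0.93), Krt19 (0.93), Wnt5a (0.92) and Nupr1 (0.91), and S100a6 had 0.99 for deviations from the group means. For the mitochondrial pair they were Vdac1 (0.95), Dhx29 (0.95), Ybx1 (0.95), Cbs (0.95) and Timm50 (0.95). These are descriptions, since the libraries share their groups and their scaling.

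Other chaperones and heat shock factors were read from a list of 69 genes, of which 67 were in the table and 64 were tested. In WT kidneys after folic acid 1 rose and 6 fell, where 5.06% of all genes tested were called (2.89% lower), and the median was log2 -0.16 over the 64 and 0.01 over all genes. Hspb7, a small heat shock protein, had 15.9, 11.5 and 33.4 normalised counts in WT folic acid and 5.65, 7.58, 2.88 and 3.00 in WT vehicle (log2 1.83, SE 0.45, adjusted p = 0.0303, limma), which is few reads. Dnaja4, a J protein, fell to 28.4, 59.5 and 32.4 in WT folic acid, against 105, 60.7, 88.3 and 111 in WT vehicle (log2 -1.20, SE 0.28, adjusted p = 0.0260). The others that fell were the J protein Dnajb6 (log2 -0.58), the mitochondrial unfoldase Clpx (-0.75), heat shock factor Hsf2 (-0.44), the chaperonin subunit Cct3 (-0.45) and the endoplasmic reticulum chaperone Hyou1 (-0.75), with adjusted p of 0.0366 to 0.0459. In G3 kidneys after folic acid 0 of the 64 passed in limma (0.273% of all genes did), and the smallest p were those of Bag4, an HSP70 exchange factor (log2 -0.57, SE 0.14, adjusted p = 0.0739), the J protein Dnajb4 (log2 -0.47, SE 0.15, adjusted p = 0.151) and Hsf2 (log2 -0.31, SE 0.11, adjusted p = 0.199). Hsf1 itself had 34.0 to 47.4 normalised counts in G3 folic acid, 47.9 to 61.7 in G3 vehicle, 37.4 to 49.9 in WT folic acid and 35.1 to 79.6 in WT vehicle; the G3 groups did not overlap, at log2 -0.32 (SE 0.23, limma adjusted p = 0.598), which is no call.

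Between G3 and WT vehicle kidneys 4 of the 64 were lower and 0 higher, where 2.9% of all genes tested were called (2.03% lower), and the median was log2 -0.21 over the 64 and 0.02 over all genes. Clpx had 214, 259, 194 and 181 normalised counts in G3 vehicle and 372, 358, 370.3 and 436 in WT vehicle (log2 -0.86, SE 0.18, adjusted p = 0.0173, limma), with every G3 library below every WT library. The HSP90 partners Ppid (log2 -0.63, SE 0.15, adjusted p = 0.0316) and Stip1 (log2 -0.50, SE 0.13, adjusted p = 0.0433) and the chaperonin subunit Cct5 (log2 -0.58, SE 0.15, adjusted p = 0.0422) were also lower. In the list of HSP90 and its cochaperones all 10 tested genes had negative values, 2 of them called, and of all 14651 genes 6997 were negative. After folic acid 1 of the 64 was higher and 3 were lower, where 2.3% of all genes were called: G3 kidneys had more Cct3 than WT kidneys (log2 0.55, SE 0.13, adjusted p = 0.0306) and less Bag4 (log2 -0.73, SE 0.15, adjusted p = 0.0226), Hsp90b1 (log2 -0.65, SE 0.15, adjusted p = 0.0319) and Dnajc3 (log2 -0.41, SE 0.11, adjusted p = 0.0484). The folic acid effects differed for 2 of the 64, where 3.82% of all genes were called: Dnaja4 (log2 1.45, SE 0.38, adjusted p = 0.0421) and Bag4 (log2 -0.87, SE 0.20, adjusted p = 0.0243), and next came Cct3 without passing (log2 0.60, SE 0.17, adjusted p = 0.0594).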

How the data were processed

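Kidney RNA of 15 libraries was read from 3′ ends with the strand-keeping QuantSeq kit, per the labels' protocols, which give RNA quality scores of 4.7 to 8 (6.3 on average). Per the submitters' processing notes, FastQC 0.11.7, TopHat2 2.0.10, Bowtie 1.0.0, SAMtools 0.1.19, HTSeq 0.6.1 and DESeq2 were used with GRCm38. The deposited signal is gene counts divided by the authors' size factors. Dividing by the step of each column gave whole reads for 100% of values (within 0.001), although in 3 columns the step lies so near 1 that this check is weak.

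Genes at 10 or more in at least 3 libraries (14651) were fitted by limma (3.58.1, R 4.3.3) after a log2 transform of the normalised count plus 1. The model held a variance trend, a mean per group, all 15 libraries and no sex term, because Xist and Y-linked RNA contradicted the labelled sex. Calls were at a Benjamini-Hochberg adjusted p under 0.05. A fold change is on the scale with 1 added. The members, lists and tests were chosen with earlier results of these data known.

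The genes named are all 10 members, the called genes of the other chaperone lists with the 3 of smallest p per comparison, and the 5 most similar genes per set. Alternatives were the labelled sex, the Y share or the title series as a term, the compared groups only, other filters (none, or 20 in 4 libraries), pseudocounts of 0.5 and 5, TMM and quantile scaling, no trend, whole reads in edgeR 4.0.16 or DESeq2 1.42.0, leaving out each library or those with both Xist and Y-linked RNA, and the urothelium term. On simulated counts limma recovered 10 to 18% of genes changed 1.5-fold and 66 to 80% of those changed 2-fold in comparisons of groups, and 2 to 6% and 28 to 34% for the difference of effects, with 4.14 to 9.38% of calls false.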

Additional observations from a re-analysis of the deposited data

Results flagged for a closer look

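Of 30 sets of 4 libraries, each 1 gene in 1 group, 2 held a library far from the others, where chance gives about 1 in 20. Hspa1a in G3 folic acid 2 was at 63.9 normalised counts, with a gap to the next library of 0.837 of the range of the group, whose other libraries had 39.9 to 43.8. G3 folic acid 2 also had the highest Hspa1b, Hsph1, Cryab and Aqp2 of its group. Hspe1 in G3 folic acid 3 was at 1761, with a gap of 0.866 of the range, and the others had 1037 to 1134. This library also had the highest Hspd1, Hspa8, Dnajb1 and Hsp90aa1 of its group, and a Y share of 0.771.

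The folic acid effect on Hspa8 differed between genotypes by log2 0.75 (SE 0.17, limma adjusted p = 0.0215). G3 folic acid (1178 to 1619) and G3 vehicle (1188 to 1286) overlapped, and all 3 WT folic acid libraries (943 to 1232) lay below WT vehicle (1625 to 1792).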

How the results depend on the processing

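Over 30 alternatives, 1490 member fold changes were recomputed: 1359 kept their direction and side of the threshold, 41 calls were lost, 11 were gained, 0 were reversed and 79 uncalled values changed sign. The members called after folic acid in WT (1, Hspa8) were 0 with the Y share or the title series in the fit, 2 (with Hspd1) by DESeq2, without the libraries with both Xist and Y-linked RNA and with the urothelium term, and 0 to 2 on leaving out 1 library. In G3 against WT after vehicle (3) they were 0 with the labelled sex, the Y share or the title series, 1 (Hspe1) with quantile scaling or no trend, 2 by edgeR and 0 to 4 on leaving out 1 library. For the difference of effects (1) they were 0 with the labelled sex, the Y share, the title series or no trend, 2 by DESeq2 and without the libraries with both kinds of RNA, and 0 to 2 on leaving out 1 library. The 0 members called after folic acid in G3, and in G3 against WT after folic acid, stayed 0 under every alternative run. The cause of these changes was not tested. Counts over all genes moved far more. Folic acid in WT (741 by limma) called 1257 by DESeq2, 336 with no trend, 370 with the labelled sex, 1 with the Y share, 2 with the title series and 99 to 1306 on leaving out 1 library. In G3 (40) the counts were 387, 4, 12, 9, 0 and 3 to 360 under the same settings. G3 against WT after vehicle (425) called 787 by DESeq2, 216 with no trend, 17 with the labelled sex, 1 with the Y share, 1 with the title series and 81 to 685 on leaving out 1 library. After folic acid (337) it called 763 by DESeq2, 78 with the compared groups only, 17 with the Y share, 0 with the title series and as few as 27 on leaving out 1 library. The difference of effects (560) called 966 without the libraries with both kinds of RNA, 292 with no trend, 103 with the labelled sex, 2 with the Y share, 3 with the title series and 253 to 926 on leaving out 1 library.

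No paired analysis was possible because the replicate numbers follow the order of accessions and the labels give none. Hspa1a and Hspa1b rest on 40 to 106 and 19 to 154 reads a library, so their relative counting error is larger than at members with more reads. Of all pairs of libraries, G3 vehicle 3 and 4 (chi-square of 3.03, averaged over genes) and WT folic acid 2 and 3 (3.35) were closest. The next pair was at 8.78. Every pair with WT folic acid 1 was at 75.0 to 112, also within its group, and all other pairs at 50.4 or less. The WT folic acid group thus holds a close pair and 1 library far from all others. Counting noise alone was exceeded, and all libraries were kept as separate.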

Other observations

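Of 13 endoplasmic reticulum chaperones tested, 1 fell after folic acid in WT kidneys (Hyou1), where 5.06% of all genes were called, and the 13 ran from log2 -0.75 to 0.72. In G3 against WT kidneys 2 were lower after folic acid (Hsp90b1 and Dnajc3, 2.3% of all genes called). After vehicle 11 of 13 were negative in G3 against WT kidneys, with a median of log2 -0.25 and none called in limma. Of all 14651 genes tested, 6997 were negative, the median was log2 0.02, and 2.9% were called. Hspa5, the main chaperone of that compartment, had 2156, 2116, 2454 and 2222 normalised counts in G3 folic acid, 2524, 2420.0, 2059.9 and 1845 in G3 vehicle, 2445, 2737 and 2557 in WT folic acid and 3013, 2627, 2683 and 2832 in WT vehicle. Hsp90b1, its HSP90 relative, had 1722, 1782, 1886 and 2181 after folic acid in G3 kidneys, against 2824, 3016 and 3035 in WT kidneys, without overlap.

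Dbp, a clock output gene whose level follows the time of day, was at 188 to 322 normalised counts in G3 folic acid, 23.4, 42.0, 369 and 389 in G3 vehicle, 146, 42.2 and 37.2 in WT folic acid and 36.0 to 64.3 in WT vehicle. The labels state no hour of collection, and its part in the heat shock protein levels was not tested.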
